A study of Mus musculus with 12 samples.

Results

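The secreted hepatokines followed here in mouse liver are Angptl8, Inhbe, Fst, Gdf15, Igfbp2, Lect2, Enho, Tsku and Fetub. They were taken by name, as secreted liver hormones and binding proteins, with earlier results of these data known. They make up 9 of the 16346 genes in the deposited table. Hepatokines are proteins that the liver releases into the blood and that act on fat, muscle, brain or the liver itself. Several are known to follow the nutritional state, some through insulin and some through cellular stress, and others are steady products of the hepatocyte. The group also holds proteins that bind other secreted proteins, since follistatin binds activins and IGF-binding proteins hold insulin-like growth factors in the circulation.

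RNA was sequenced from 12 livers of C57BL6J mice aged 12 weeks, with 2 mice in each of 6 groups. The control mice were Med13 fl/fl, which carry floxed Med13 alleles without Cre. The MED13-LKO mice are the liver-specific knockouts, in which Cre under the Albumin promoter removes Med13 in hepatocytes, leaving the other liver cells with the gene. Med13 encodes a subunit of the kinase module of Mediator, the large complex through which transcription factors reach RNA polymerase. In each genotype one group was fasted overnight for 16 h, and the others were fasted likewise and then given chow for 4 h along with water holding 30% sucrose or 30% fructose. The fasted mice were killed earlier in the day than the fed mice, so feeding and clock hour cannot be told apart here.

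The values are normalized counts, summing to 21060000 to 24150000 in the 6 control libraries and to 17310000 to 18740000 in the 6 MED13-LKO libraries. The Med13 count was 578 to 796 in controls (median 673) and 646 to 1055 in libraries labelled MED13-LKO (median 763). The 2 ranges overlap, and the count was not lower in the knockouts. It sums over the whole gene, and the deleted exons are not counted separately in it, so it does not check the labels, and every genotype difference below is a difference between libraries by their labels. Nnt, a gene for which C57BL/6J mice are known to carry a deletion, stood at 529 to 1004 in controls and 2617 to 3687 in libraries labelled MED13-LKO. Hepatocyte markers were abundant in all 12 libraries, and their summed count was 2801633 to 3580616 in controls and 2173856 to 2644822 in MED13-LKO. The part of the Nnt and hepatocyte marker differences in the genotype results was not tested. Adipocyte markers matter because Angptl8 is also a fat-cell gene. Their sum was uneven, at 0 to 110 in controls (median 1.63) and 1.03 to 5.97 in MED13-LKO (median 2.69). Of the 5 markers 2, Plin1 and Lep, are not listed in the table analysed.

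Short motifs were searched in windows around the gene starts, with earlier results of these data known. RefSeq (GRCm38.p6) windows from 250 bases before to 50 bases after a start were found for 7 of the 9 members, 11 windows in all. Fst and Enho had none. The motifs were searched on both strands: TGTTTAC (FOXO), CACGTG (E-box), TGATGCAA (CARE, the C/EBP-ATF response element) and TCACCCCAC (SRE). TGATGCAA was found in the windows of Angptl8 and Inhbe and in no other member's window, and 0.895% of all 32851 windows hold it. In Angptl8 it lies at bases -130 to -123 from the start, on the strand of the gene. In Inhbe it lies at -181 to -174, on the other strand, so that it reads TTGCATCA. The 250 bases before the start of Angptl8 (chr9:21835260-21835509, plus strand) are given because Angptl8 has the largest feeding response, followed by the 30 bases around the match in each gene (chr9:21835369-21835398, plus strand, and chr10:127352011-127352040, minus strand). Capitals mark the match.
Angptl8, before the start: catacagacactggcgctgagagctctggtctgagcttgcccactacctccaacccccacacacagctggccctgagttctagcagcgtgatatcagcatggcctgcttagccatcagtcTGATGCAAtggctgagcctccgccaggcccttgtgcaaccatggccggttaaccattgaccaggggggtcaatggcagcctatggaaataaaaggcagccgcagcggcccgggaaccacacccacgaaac
Angptl8, match: agccatcagtcTGATGCAAtggctgagcct
Inhbe, match: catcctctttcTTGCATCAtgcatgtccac
The Inhbe window follows the RefSeq start, which lies 2563 bases inside the Inhbe gene of GENCODE M21, so by that annotation the match is within the gene. CACGTG was in one window each of Gdf15 and Igfbp2 (7.15% of all windows), TGTTTAC was in one window of Fetub (3.65%), and TCACCCCAC was in none of the 11 (0.551%). These matches describe letters in a window and do not show that a factor binds there.

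The members span more than 3 orders of magnitude of RNA. Per kilobase of exon, the mean normalized count over the 12 libraries was 3774 for Fetub, 3511 for Angptl8, 1961 for Igfbp2, 1715 for Lect2, 753 for Tsku, 118 for Inhbe, 103 for Enho, 34.0 for Gdf15 and 1.02 for Fst. On this scale Fetub and Angptl8 stood at the 97.5 and 97.4 percentiles of the 12366 genes that passed a minimum mean of 10 normalized counts, and Gdf15 at the 36.5 percentile. These means mix diets and genotypes, and the order depends on that mix. In fasted livers Angptl8 was at 336 per kilobase in controls and 504 in MED13-LKO, and Enho at 231 and 7.04. Of the 9 members 8 passed that minimum and were tested. Fst did not and is given by its values alone.

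**Figure D1:**
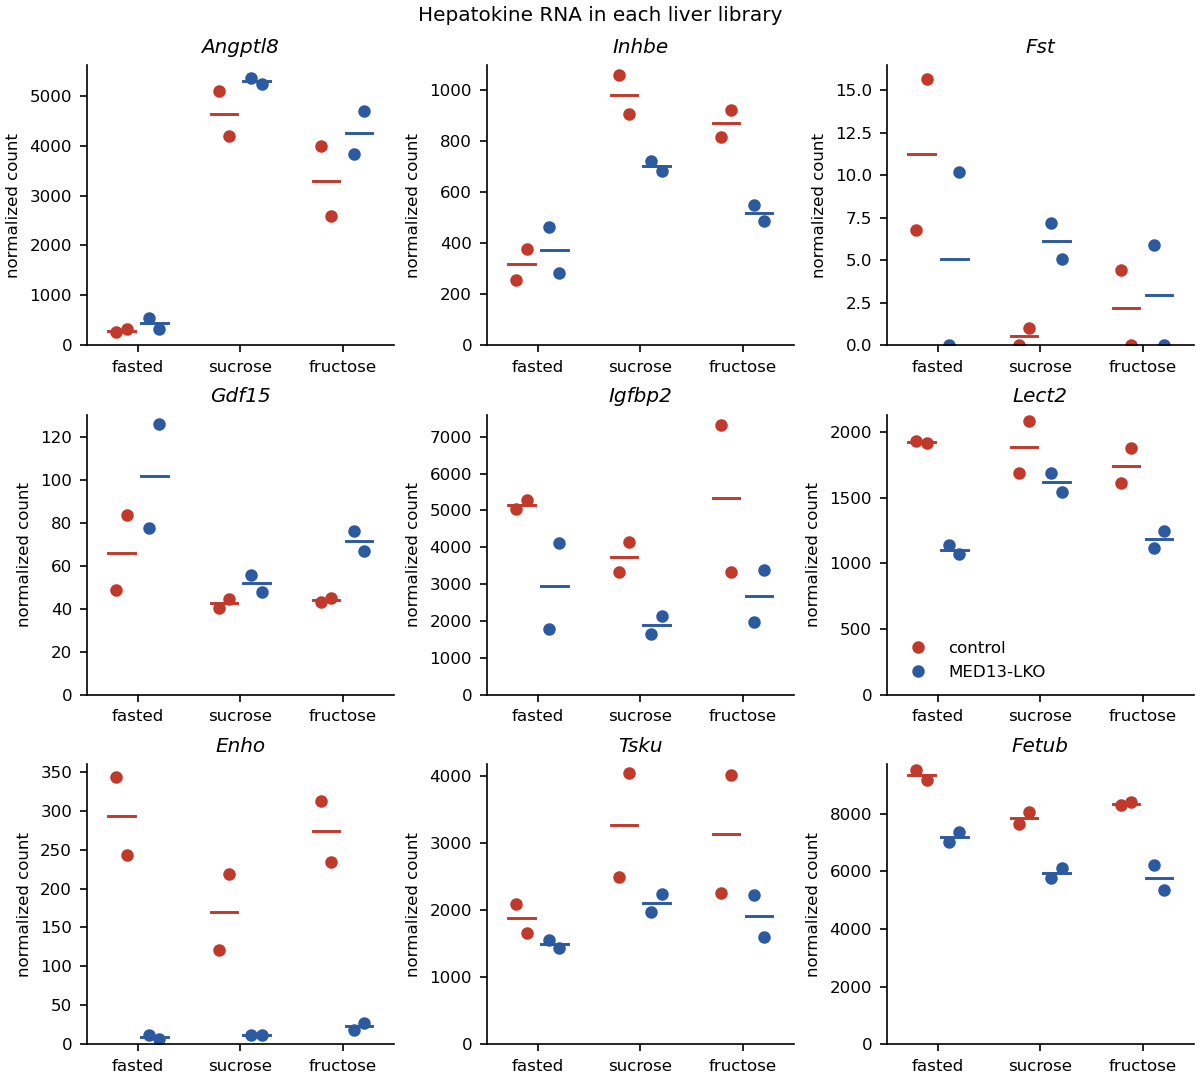
Normalized count (linear axis from 0) of each of the 9 members in each of the 12 liver libraries, by diet, with control in red and MED13-LKO in blue. Points are single mice and bars are means of 2 mice. Angptl8 is 264 to 549 in every fasted library and at least 2589 in every fed one, and Enho is at most 26.9 in every MED13-LKO library and at least 121 in every control.

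Angptl8 and Inhbe rose with refeeding. Both were higher in every fed library than in any fasted library, Angptl8 by 12.2-fold and Inhbe by 2.22-fold on average. Tsku was 1.48-fold higher, Gdf15 1.54-fold lower and Fetub 1.19-fold lower with feeding, while Igfbp2, Lect2 and Enho did not pass the test. In this averaged comparison of the 8 fed with the 4 fasted libraries, 5 of 8 members tested passed (3 higher and 2 lower), where 21.8% of all 12366 genes did. Since the members were chosen with earlier results known, their share is a description and not a test of hepatokines as a set. The median log2 fold change was 0.16 over the members and -0.01 over all genes. Tests were by limma on log2(normalized count + 1), with Benjamini-Hochberg adjustment over all genes and a threshold of 0.05, and fold changes are on that scale, which understates those of low genes. Nothing in the labels says whether the mice of a group came from separate litters or cages, and the p-values measure the spread between these samples. In whole liver, fewer cells of a type and less RNA per cell cannot be told apart.

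Angptl8 encodes a secreted protein that takes part in inhibiting lipoprotein lipase, the enzyme that releases fatty acids from circulating triglyceride. Its gene lies on chromosome 9 (21835510 to 21837347, GRCm38), within Dock6 on the opposite strand, and shares no 31-base sequence with another gene. The search for shared sequence covered both strands of annotated transcripts. Use of strand in the counting is not given in the sources used here. Other reads from the opposite strand, such as those of unspliced RNA, therefore cannot be told apart from those of the gene. In the control mice the counts were 264 and 317 when fasted, 5093 and 4193 after sucrose, and 4001 and 2589 after fructose. In the mice labelled MED13-LKO they were 549 and 323 when fasted, 5360 and 5240 after sucrose, and 3825 and 4696 after fructose. Fasted and fed libraries were far apart in both genotypes, and the lowest fed library was a fructose-fed control. The averaged log2 fold change was 3.61 ± 0.156 (SE, limma, adjusted p = 3.21e-06). By group the rise was 3.99 after sucrose and 3.47 after fructose in controls, and 3.65 and 3.33 in MED13-LKO (limma, adjusted p 9.51e-05, 0.000345, 0.000238 and 0.000543). Group means ran in the order control fasted (290 ± 37.1, SD, n = 2), MED13-LKO fasted (436 ± 160), control fructose (3295 ± 999), MED13-LKO fructose (4261 ± 616), control sucrose (4643 ± 636) and MED13-LKO sucrose (5300 ± 84.9). The step from MED13-LKO fasted to control fructose was the only one larger than the SDs of its 2 groups added together.

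Inhbe encodes the beta E subunit of inhibins and activins, a TGF-beta family ligand made mainly by the liver that forms activin E. Its counts in controls were 256 and 379 when fasted, 1058 and 907 after sucrose, and 817 and 923 after fructose. In MED13-LKO they were 463 and 285 when fasted, 724 and 684 after sucrose, and 550 and 487 after fructose. The fasted libraries of the 2 genotypes overlapped, and every fed control was above every fed MED13-LKO library. The log2 rise in controls was 1.65 ± 0.229 after sucrose and 1.48 ± 0.229 after fructose (SE, limma, adjusted p 0.00259 and 0.00715). In MED13-LKO it was 0.95 after sucrose (limma, adjusted p = 0.0403) and 0.51 after fructose (95% interval 0.00 to 1.02, adjusted p = 0.215). The sucrose call in MED13-LKO was lost without MED13-LKO fasted replicate 2 (0.60, limma adjusted p = 0.228), and also without either sucrose or fructose library of that genotype or either control sucrose library (0.91 to 0.99, adjusted p 0.054 to 0.173), and when only the compared groups were fitted. The fructose call in controls was lost when only the 2 groups compared were fitted (adjusted p = 0.102).

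In the control livers 2 of the 8 members, Angptl8 and Inhbe, were called higher with each sugar, where 8.57% of all genes were called after sucrose and 5.6% after fructose. In MED13-LKO livers 3 members were called after sucrose (Angptl8, Inhbe and Lect2; 5.71% of all genes) and 1 after fructose (Angptl8; 6.53%). These comparisons share the fasted libraries of their genotype, so they are not separate evidence. The plot of refeeding responses sets the 4 side by side.

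**Figure D2:**
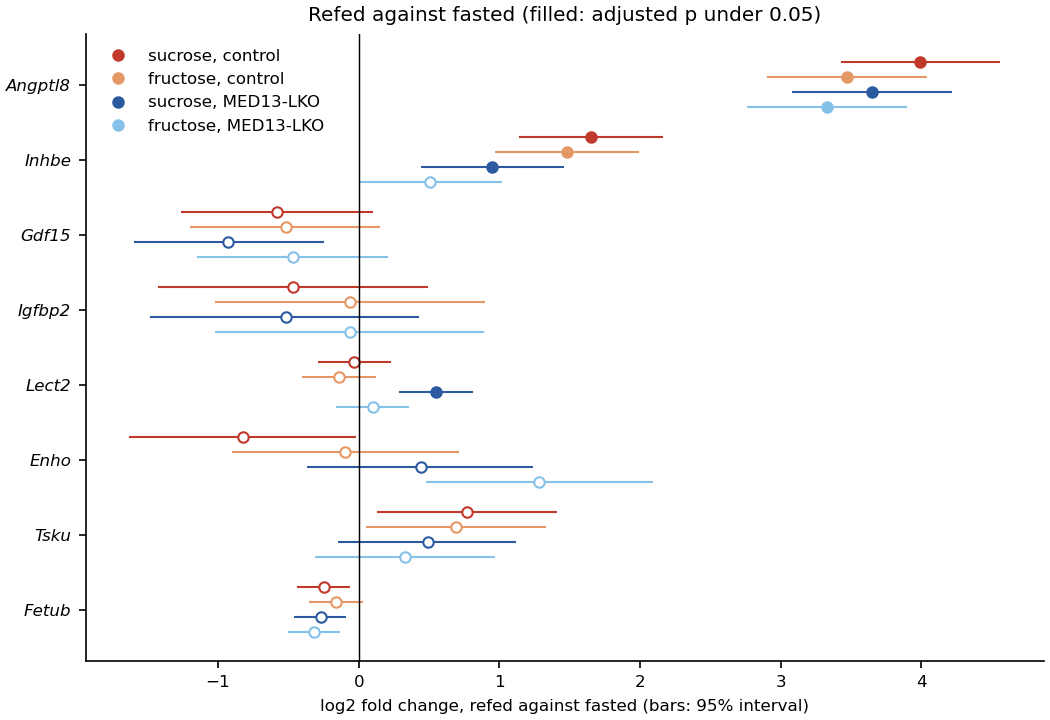
Log2 fold change of refed against fasted libraries for the 8 members tested, by sugar and genotype (2 mice in each group), with 95% intervals from limma. Filled points have an adjusted p under 0.05: Angptl8 lies at 3.33 to 3.99 in all 4 comparisons, Inhbe at 0.51 to 1.65, and the intervals of Igfbp2 cross 0 in all 4.

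Gdf15 encodes a stress-induced hormone that acts through a hindbrain receptor to lower food intake. It was a low gene here, with 48.9 and 83.4 normalized counts in fasted controls, 40.3 and 44.7 after sucrose, and 43.1 and 45.1 after fructose. In MED13-LKO the counts were 77.7 and 126 when fasted, 55.8 and 47.8 after sucrose, and 76.1 and 66.9 after fructose. Within each genotype every fed library was below every fasted one. The averaged feeding change was -0.62 ± 0.186 in log2 (SE, limma, adjusted p = 0.038), and no single sugar and genotype passed (log2 -0.93 to -0.47). This call was lost without any one of 9 of the 12 libraries, its log2 change then running from -0.65 to -0.44 (adjusted p 0.0519 to 0.169). It held only without control fasted replicate 1, MED13-LKO fasted replicate 1 or control fructose replicate 2. It was also lost with libraries scaled to equal sums (-0.52, limma adjusted p = 0.0653) and without the filter on low values (adjusted p = 0.0533).

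Tsku encodes tsukushi, a small leucine-rich secreted protein of the liver. Controls had 2095 and 1664 normalized counts when fasted, 2498 and 4042 after sucrose, and 2250 and 4013 after fructose, so that one mouse in each fed control group stood well above the other. MED13-LKO livers had 1559 and 1436 when fasted, 1968 and 2231 after sucrose, and 2227 and 1594 after fructose. The averaged feeding change was 0.57 ± 0.176 in log2 (SE, limma, adjusted p = 0.0444). It was lost without any of 8 libraries: each of the 4 fasted ones, control sucrose replicate 2, both MED13-LKO sucrose libraries and MED13-LKO fructose replicate 1 (0.48 to 0.65, adjusted p 0.0649 to 0.163). Without the filter on low values it was also lost (adjusted p = 0.052). Fetub encodes fetuin B, a protease inhibitor of the cystatin family released by the liver. It was the most abundant member per kilobase by the mean over all libraries. Its counts fell with feeding from 9505 and 9155 in fasted controls to 7644 and 8041 after sucrose and 8296 and 8396 after fructose. In MED13-LKO they fell from 7006 and 7361 to 5759 and 6123 after sucrose and 6217 and 5343 after fructose. The averaged change was small and even, -0.25 ± 0.0515 in log2 (SE, limma, adjusted p = 0.00754), and was -0.14 with libraries scaled to equal sums (adjusted p = 0.0737). Of 10 hepatocyte markers 4 were called lower with feeding as well and none higher, where 21.8% of all genes were called. They were Tat (-1.89), Ass1 (-0.47), Cps1 (-0.45) and Hnf4a, a liver transcription factor (-0.29). The part of these marker changes in the Fetub change was not tested.

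Igfbp2, Lect2 and Enho had averaged feeding changes of -0.28 (95% interval -0.87 to 0.31), 0.12 (-0.04 to 0.28) and 0.20 (-0.29 to 0.69) in log2, none of which passed. Lect2 in MED13-LKO went from 1139 and 1072 when fasted to 1691 and 1542 after sucrose, a log2 change of 0.55 ± 0.117 (SE, limma, adjusted p = 0.0263). The call was lost without any one of those 4 libraries (0.48 to 0.61, adjusted p 0.0808 to 0.153). Enho in MED13-LKO after fructose was 1.28 above fasted in log2 (limma, adjusted p = 0.0629), at counts of 18.7 and 26.9 against 11.4 and 6.50. Fst, follistatin, is a secreted antagonist of activins and a glucagon-responsive liver product. Its counts were 6.79 and 15.7 in fasted controls, 0 and 1.03 after sucrose, and 4.4 and 0 after fructose. In MED13-LKO they were 0 and 10.2 when fasted, 7.19 and 5.07 after sucrose, and 5.91 and 0 after fructose. Fst was listed at 0 in 4 of the 12 libraries and at most 15.7 in the rest. It was below the minimum for testing, so these values do not show whether it differed between groups.

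The libraries labelled MED13-LKO had less RNA of Enho, Igfbp2, Tsku, Lect2 and Fetub than controls. Enho stood far apart, at 16.4-fold lower. The others were 1.93-fold (Igfbp2), 1.44-fold (Tsku and Lect2) and 1.35-fold (Fetub) lower. Averaged over diets, 5 of 8 members were called, all lower, where 25.3% of all genes were called. As with feeding, that share of the members is a description and not a test of the set. The median log2 fold change was -0.48 over the members and 0.01 over all genes. Gdf15 (0.53, adjusted p = 0.0509), Angptl8 (0.38, adjusted p = 0.0883) and Inhbe (-0.33, adjusted p = 0.0947) did not pass by limma. Leaving out 1 library brought each of these past the threshold: Gdf15 without control fasted replicate 2 (0.66) or MED13-LKO fasted replicate 1 (0.64), Angptl8 without control fructose replicate 1 (0.48) or MED13-LKO fasted replicate 2 (0.51), and Inhbe without control fasted replicate 1 (-0.43) or MED13-LKO fasted replicate 1 (-0.45). Gdf15 also passed with equal 75th percentiles (0.57, adjusted p = 0.0384).

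Enho encodes the precursor of adropin, a secreted peptide linked to glucose and lipid metabolism. The gene lies on chromosome 4 (41638144 to 41640324, GRCm38, minus strand), where its end overlaps Dnaic1 on the opposite strand, Gm12406 also overlaps it on that strand, and it shares no 31-base sequence with another gene. In controls its counts were 343 and 243 when fasted, 121 and 219 after sucrose, and 313 and 234 after fructose. In MED13-LKO they were 11.4 and 6.50 when fasted, 12.2 and 11.8 after sucrose, and 18.7 and 26.9 after fructose. The lowest control was above the highest MED13-LKO library, and the means were 246 ± 77.9 and 14.6 ± 7.16 (SD, n = 6 each). The averaged log2 fold change was -4.03 ± 0.209 (SE, limma, adjusted p = 1.57e-06), with -4.91 when fasted, -3.66 after sucrose and -3.53 after fructose (adjusted p 6.17e-05, 0.000437 and 0.000458). Dnaic1 averaged 1.81 counts in controls and 0.281 in MED13-LKO, below Enho in both.

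The tested neighbours of Enho, chosen after its values were seen, showed no drop of that size. Dnaic1, which overlaps Enho, was below the minimum count and was not tested (means of 1.81 in controls and 0.281 in MED13-LKO). Within 150 kb, 9 other genes were tested, and their genotype differences ran from -0.33 to 0.35 in log2. The lowest was Ccl27a, a chemokine gene (-0.33, limma adjusted p = 0.0252), and the highest AI464131 (0.35, adjusted p = 0.00126). Cntfr, the nearest tested gene on the upstream side and a receptor for ciliary neurotrophic factor, averaged 43.0 counts in controls and 35.8 in MED13-LKO (-0.24, adjusted p = 0.503).

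**Figure D3:**
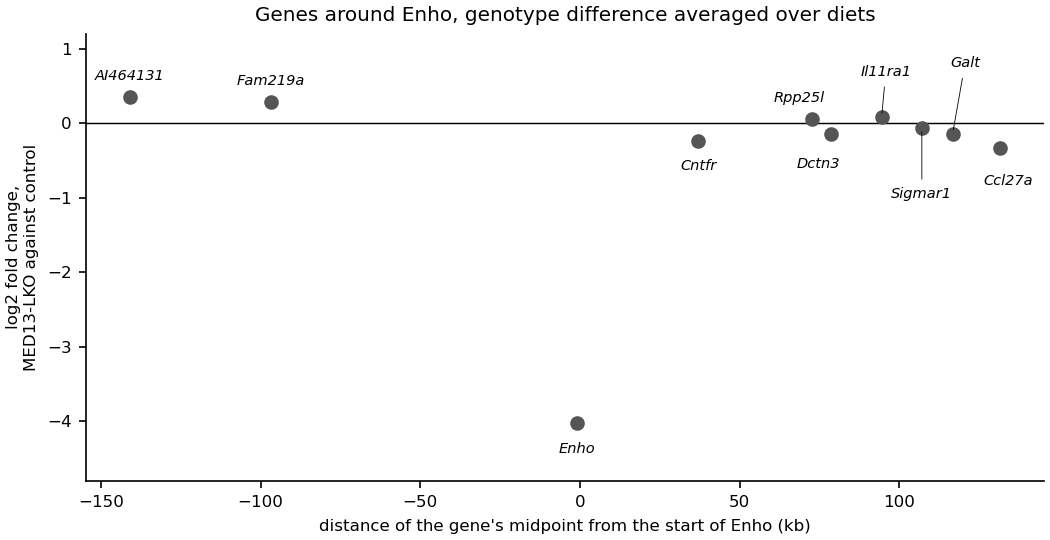
Log2 fold change of MED13-LKO against control libraries (6 each, averaged over diets) for Enho and the 9 other tested genes within 150 kb, against the distance of each gene's midpoint from the start of Enho in kb. Enho lies at -4.03 and the others between -0.33 and 0.35.

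Igfbp2, which binds insulin-like growth factors in the circulation, varied more between mice than the other abundant members. Its counts in controls were 5029 and 5274 when fasted, 3323 and 4146 after sucrose, and 7315 and 3336 after fructose. In MED13-LKO they were 1771 and 4118 when fasted, 1650 and 2134 after sucrose, and 1974 and 3384 after fructose. The genotypes overlapped, since the highest MED13-LKO library was above the lowest controls. The averaged log2 fold change was -0.95 ± 0.248 (SE, limma, adjusted p = 0.0195), and no single diet passed, although the differences were similar (-0.93 when fasted, -0.98 after sucrose and -0.93 after fructose). The averaged call was lost without control sucrose replicate 2 (-0.90), MED13-LKO sucrose replicate 1 (-0.89) or MED13-LKO fructose replicate 1 (-0.82), with limma adjusted p of 0.0528 to 0.0562. For Tsku the averaged difference was -0.53 ± 0.166 (SE, limma, adjusted p = 0.0406). It was lost without any of 9 of the 12 libraries (-0.59 to -0.39, adjusted p 0.0515 to 0.104) and held only without control sucrose replicate 1, control fructose replicate 1 or MED13-LKO fructose replicate 1. With equal 75th percentiles it was -0.48 (adjusted p = 0.058).

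Lect2, a hepatocyte-secreted protein first known as a chemotactic factor for neutrophils, was lower in MED13-LKO when fasted and after fructose. Its counts in controls were 1929 and 1915 when fasted, 1692 and 2082 after sucrose, and 1611 and 1879 after fructose. In MED13-LKO the fasted pair had 1139 and 1072, the sucrose pair 1691 and 1542, and the fructose pair 1118 and 1249. When fasted and after fructose every MED13-LKO library was below every control, and after sucrose the higher MED13-LKO library (1691) was level with the lower control (1692). The averaged log2 fold change was -0.52 ± 0.0675 (SE, limma, adjusted p = 0.000479), with -0.80 when fasted (adjusted p = 0.00324), -0.56 after fructose (0.0195) and -0.22 after sucrose (0.329). The fructose call was lost without control fructose replicate 2 (-0.45), MED13-LKO fructose replicate 1 (-0.48) or MED13-LKO fructose replicate 2 (-0.64), and when only those groups were fitted. With equal library sums, described below, it was -0.24 (adjusted p = 0.176), and the fasted call held.

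Fetub had the smallest SE of the genotype difference among the members. Every MED13-LKO library (5343 to 7361) was below every control (7644 to 9505), and the averaged log2 fold change was -0.44 ± 0.0486 (SE, limma, adjusted p = 0.000193). It was -0.38 when fasted, -0.40 after sucrose and -0.53 after fructose (adjusted p 0.0233, 0.0231 and 0.00505). The fasted call was lost without any 1 of the 4 fasted libraries (-0.41 to -0.34), and the sucrose call without any 1 of the 4 sucrose libraries (-0.44 to -0.36) or with equal 75th percentiles. With only the compared groups fitted, the sucrose and fructose calls were lost. With equal library sums all 3 calls were lost, at -0.03 when fasted, -0.12 after sucrose and -0.21 after fructose (limma, adjusted p 0.782, 0.349 and 0.0888). By diet, 3 members were called when fasted (Lect2, Enho and Fetub; 8.98% of all genes), 2 after sucrose (Enho and Fetub; 6.03%) and 3 after fructose (Lect2, Enho and Fetub; 7.69%), all lower.

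**Figure D4:**
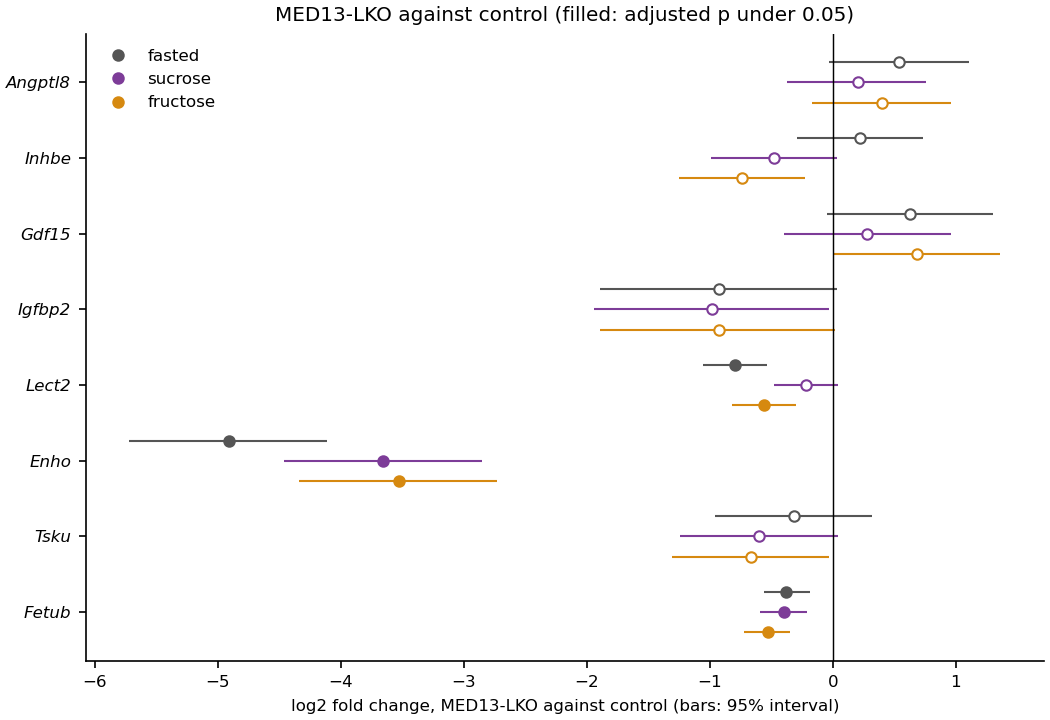
Log2 fold change of MED13-LKO against control libraries for the 8 members tested, by diet (2 mice in each group), with 95% intervals from limma and filled points for an adjusted p under 0.05. Enho lies between -4.91 and -3.53, and Fetub between -0.53 and -0.38 in all 3 diets.

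The size of the smaller genotype differences depended on the scaling of the libraries, while that of Enho did not come near 0. Of the 10 hepatocyte markers 6 were also called lower in MED13-LKO, with a list median of -0.40, where 25.3% of all genes were called. Albumin (Alb) and transthyretin (Ttr), both secreted liver proteins, were at -0.45 and -0.44, close to Fetub. Apob (-0.08), Cyp2e1 (-0.07), Hnf4a (-0.14) and Tat (-0.16) were not called. Scaling all libraries to equal sums, an alternative chosen after seeing the data, moved the median genotype difference of all genes from 0.01 to 0.32. The share of called genes that were higher in MED13-LKO went from 47.7% to 94.6% (60.3% with equal 75th percentiles). Under equal sums Enho stayed at -3.73, Igfbp2 at -0.63 and Lect2 at -0.21 (limma, adjusted p 1.72e-06, 0.0415 and 0.0307). Fetub (-0.12, adjusted p = 0.0574) and Tsku (-0.21, adjusted p = 0.288) were no longer called. Gdf15 (0.84, adjusted p = 0.00259) and Angptl8 (0.69, adjusted p = 0.00236) were then called higher. Rescaling divides each library by a single factor, so the members and the median of all genes move together. The distance of a member from that median is thus nearly unchanged by construction and does not show which scaling holds.

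**Figure D5:**
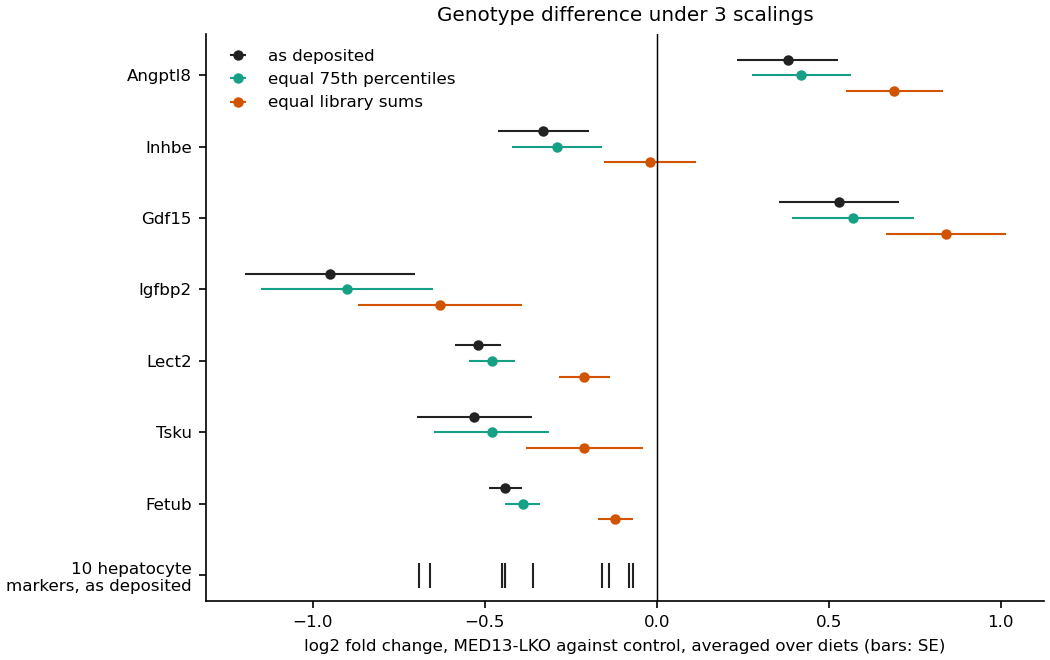
Log2 fold change of MED13-LKO against control libraries (6 each, averaged over diets) for 7 members under 3 scalings, with SE bars, and for 10 hepatocyte markers as deposited (ticks). Enho, at -4.03, -3.99 and -3.73, lies outside the axis and is not drawn. With equal library sums every member shifts to the right, Fetub from -0.44 to -0.12 and Gdf15 from 0.53 to 0.84.

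Whether the refeeding response differed between genotypes was tested as an interaction, with the sugars averaged. None of the 8 members passed by limma, where 0.0404% of all genes did (5 of 12366). Of the 8 members 3 had an unadjusted p under 0.05, as did 1173 of all genes. For Inhbe the interaction, the refeeding change in MED13-LKO less that in controls, was -0.83 in log2 (95% interval -1.46 to -0.21, adjusted p = 0.379). For Enho the interaction was 1.32 (0.33 to 2.30, adjusted p = 0.378) and for Lect2 0.41 (0.09 to 0.73, adjusted p = 0.399). For Angptl8 it was -0.24, and the interval of -0.94 to 0.45 leaves room for a smaller or a larger rise in MED13-LKO. These intervals do not show that the responses were alike.

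Fructose and sucrose were compared over both genotypes. No member passed by limma, and 0.0404% of all genes did (5 of 12366). Unadjusted, 3 members and 1172 genes had a p under 0.05. Angptl8 differed by -0.42 in log2 (95% interval -0.82 to -0.02, adjusted p = 0.51), Lect2 was at -0.28 (-0.46 to -0.10, adjusted p = 0.383) and Enho at 0.79 (0.22 to 1.36, adjusted p = 0.413). Inhbe was at -0.31 (-0.67 to 0.05) and Gdf15 at 0.26 (-0.22 to 0.73).

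The genes whose levels followed each member most closely over the 12 libraries were found by Pearson's r of log2(normalized count + 1) over 12096 protein-coding genes. All of these libraries share the same 6 groups, so r reflects group differences, and it is given as a description. For Angptl8 they were Rcan1, a calcineurin regulator (r = 0.983), Hdhd3 (0.977) and Nes (0.976). For Inhbe they were Adipor2, an adiponectin receptor (0.937), Arrdc3 (0.933) and Pklr, the liver pyruvate kinase (0.928). For Gdf15 they were Fbxo21 (0.955), Enpp1 (0.912) and Tmem140 (0.907). For Igfbp2 they were Ssr4 (0.951), Cyp2c23 (0.944) and the ribosomal protein gene Rplp0 (0.942). Lect2 was followed by Fitm1 (0.951), Nlrp12 (0.949) and Hsd3b7 (0.947), and Enho by Rdh16f2 (0.976), Capza1 (0.975) and Arpc5l (0.969). Tsku had the loosest, Pam, Dgkq and U2af1l4 (0.873 to 0.894). Fetub was followed by Rbp4, the plasma retinol carrier (0.977), Eif3h (0.972) and the elongation factor gene Eef1a1 (0.971).

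Other secreted liver proteins were set beside the members as a list of 25 genes, 23 of them tested. With feeding, where 21.8% of all genes were called, 5 were called higher and 6 lower, with a median log2 fold change of -0.13 against -0.01 over all genes. The largest were Igfbp1, an insulin-repressed IGF-binding protein (-4.43), Angptl4, a fasting-induced lipase inhibitor related to Angptl8 (-3.20), Inhba, the activin beta A subunit (2.25), and Hamp, hepcidin (1.17; limma, adjusted p 7.42e-05, 0.00012, 0.000774 and 0.0165). Angptl4 counts were 3087 to 4609 in fasted and 187 to 947 in fed libraries, the opposite order to Angptl8. In MED13-LKO, where 25.3% of all genes were called, 2 of the 23 were called higher and 13 lower, with a median of -0.34 against 0.01. The largest were Hamp (1.41), Igfbp1 (-1.32), Apom, an apolipoprotein (-1.0), and Manf (-0.75; limma, adjusted p 0.00437, 0.0257, 0.000161 and 0.0121).

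Receptors and Smads for activins were taken as a further list, together with receptors for growth factors, insulin and growth hormone. The list is broader than the partners of the members, so a change in it is not one in their signalling. Of 15 tested, 4 were called lower with feeding and none higher by limma (21.8% of all genes were called), the largest being Met, the hepatocyte growth factor receptor (-0.47), Smad4 (-0.37) and Insr, the insulin receptor (-0.33). In MED13-LKO 1 was called higher (Bmpr2, 0.20) and 1 lower (Ghr, the growth hormone receptor, -0.54), where 25.3% of all genes were called. Genes of the integrated stress response, the pathway in which Gdf15 and the CARE motif are known, went both ways. Of 14 tested, 3 were called higher and 5 lower with feeding (21.8% of all genes), with Ddit4 at -2.87, Cebpb at -1.38, Atf3 at 1.37 and Nupr1 at 1.09. In MED13-LKO, beside 25.3% of all genes, 2 were called higher (Vldlr, 1.03, and Trib3, 0.90) and 4 lower, among them Asns, asparagine synthetase (-2.50), and Ddit3 (-0.62). Insulin- and carbohydrate-responsive genes, of which 14 were tested, had 8 higher and 5 lower with feeding and 1 higher and 8 lower in MED13-LKO, beside the same 21.8% and 25.3% of all genes. Fasn and Elovl6, enzymes of fatty acid synthesis, were at 3.48 and 3.13 with feeding and at -0.76 and -1.12 in MED13-LKO.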

How the data were processed

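RNA of 12 mouse livers was sequenced as paired reads. Per the submitters' processing notes, reads were handled with Trim Galore 0.6.5, kallisto 0.46.0 and DESeq2 1.24.0, with mm10 as the genome build. The deposited signal is a table of normalized counts per gene, scaled by the authors between libraries, and its low values were whole multiples of 1 read for 87.4% to 99.0% of values of single-transcript genes (within 0.05 of a step). Depth estimated from the steps was 16090000 to 24230000 reads on genes.

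Gene names came from GENCODE M21 (16222 of 16346 identifiers matched). Genes with a mean of at least 10 normalized counts (12366) were tested with limma 3.58.1 in R 4.3.3 on log2(normalized count + 1), with trend, all 12 libraries and 6 group means in a single fit, and Benjamini-Hochberg adjusted p. The script was tested on simulated data. Count models were not run, since the values are normalized. All 9 members were named; of other lists, up to 4 called genes with the largest change, and for each member the 3 genes with the highest correlation. Members and lists were chosen with earlier results of these data known. Alternatives were pseudocounts of 0.1 and 10, no filter, equal 75th percentiles, a replicate block, a fit of only the groups compared, leaving out each library, and, added after seeing the data, equal library sums. Promoters were RefSeq windows (GRCm38.p6).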

Additional observations from a re-analysis of the deposited data

How the results depend on the processing

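Over 1648 values of single members under alternatives, 1528 kept direction and side of the threshold, 70 lost a call, 20 gained one and 30 changed sign; none of these 30 was called in either setting. Angptl8 kept its feeding call in all 18 alternatives of the averaged comparison, and Enho its genotype call in all 18. The cause of the changes was not tested. Low counts limit Fst and, in MED13-LKO, Enho.

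Members called, averaged feeding comparison: 3 without the filter and 3 with equal library sums, against 5. With equal sums 2 members were called for fructose in MED13-LKO and 1 for genotype with sucrose (1 also with equal 75th percentiles), and genes called for genotype numbered 7514 averaged, 4147 fasted, 2242 with sucrose and 3465 with fructose. With only the compared groups, genes called were 698 (sucrose, control), 27 (fructose, control, with 1 member), 414 (fructose, MED13-LKO), 163 (genotype, fructose, with 1 member) and 0 (fructose against sucrose). Fructose against sucrose gave 2 genes with a pseudocount of 10 and 3 with equal sums, and the interaction gave 1 with equal sums.

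The replicate numbers of the sample titles showed no pairing of the samples: over 15 pairs of groups the deviations of same-numbered mice correlated at -0.142 to 0.0782. The deposited columns of the fed groups bear other numbers than the titles, and a pairing of fasted with fed mice by the column numbers was not tested. With a replicate block by title number, fructose against sucrose gave 2 genes, the interaction 3 genes, and averaged feeding 4 members. The block ended 2 member calls, Tsku with feeding (0.57, limma adjusted p = 0.0541) and Inhbe for sucrose in MED13-LKO (0.95, adjusted p = 0.0552).

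Without 1 library, averaged feeding gave 3 to 5 members and 1556 to 2960 genes, sucrose in controls 329 to 1307 genes, fructose in controls 128 to 976, sucrose in MED13-LKO 1 to 3 members and 144 to 913 genes, and fructose in MED13-LKO 1 to 2 members and 65 to 1096 genes. Genotype gave 3 to 6 members averaged, 382 to 1454 genes fasted, 1 to 2 members and 149 to 987 genes with sucrose, and 328 to 1056 genes with fructose. Fructose against sucrose gave 1 to 30 genes and the interaction 0 to 17. The lowest counts of genes came without control fasted replicate 2 (averaged feeding and both sugars in controls), MED13-LKO fasted replicate 2 (genotype fasted), MED13-LKO sucrose replicate 2 (sucrose in MED13-LKO), MED13-LKO sucrose replicate 1 (genotype with sucrose) and MED13-LKO fructose replicate 2 (fructose in MED13-LKO and genotype with fructose). Fructose against sucrose was at 1 gene without either MED13-LKO sucrose library, and the interaction at 0 without MED13-LKO fasted replicate 2 or any fed MED13-LKO library.

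Sign changes without 1 library ran as follows. Igfbp2 went from -0.58 to 0.02 (averaged feeding), -0.63 to 0.51 (fructose, control), -1.13 to 0.08 (sucrose, MED13-LKO), -0.67 to 0.55 (fructose, MED13-LKO) and -0.64 to 0.58 (interaction). Lect2 went from -0.18 to 0.12 (sucrose, control), Enho from -0.34 to 0.15 (fructose, control) and Inhbe from -0.13 to 0.57 (genotype, fasted). For fructose against sucrose Tsku went from -0.33 to 0.09 and Fetub from -0.03 to 0.08, and for the interaction Gdf15 went from -0.53 to 0.23 and Angptl8 from -0.63 to 0.14. With equal sums Lect2 was 0.09 (sucrose, control) and 0.07 (genotype, sucrose), Igfbp2 0.07 and 0.04 (fructose, control and MED13-LKO), Enho 0.03 (fructose, control) and Tsku 0.02 (genotype, fasted). Igfbp2 was 0.02 for the interaction with equal 75th percentiles.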

Other observations

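Markers of the liver's other cells and of sex and growth hormone status were compared between the genotypes as labelled, where 25.3% of all genes were called. By limma, 2 of 9 Kupffer cell and macrophage markers were called higher in MED13-LKO, Marco (1.22) and Cd5l (0.63), and 5 of 8 sinusoidal endothelial markers, among them Stab2 (0.37) and Kdr (0.35). Of 10 stellate cell and fibroblast markers 4 were called lower, among them Acta2 (-0.66) and Des (-0.53). Of 3 pancreas and blood markers tested 2 were called lower, Hba-a1 (-0.80) and Hbb-bs (-0.62).

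Among 10 tested genes that depend on sex or growth hormone, 2 were called higher and 5 lower in MED13-LKO. Cyp2a4 was at 11.2 to 39.6 normalized counts in controls and 2256 to 6576 in MED13-LKO (log2 fold change 7.78 ± 0.212, SE, limma, adjusted p = 1.16e-08). Selenbp2 (-5.67), Hsd3b5 (-5.24) and Elovl3 (-2.11) were lower. The Y-linked Ddx3y was at 1450 to 1865 in all 12 libraries and was not called, nor was Kdm5d. Of the other Y-linked genes listed, Uty was called higher in MED13-LKO (0.44) and Eif2s3y lower (-0.25; limma, adjusted p 0.00165 and 0.0295). Nnt differed by 2.12 ± 0.135 (adjusted p = 5.69e-06), and the part of any of these in the hepatokine differences was not tested.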
